A study of Drosophila melanogaster with 58 samples.

Results

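The subject is stage 10 Drosophila melanogaster embryos with ectopic gcm, measured on 4 of the 58 arrays of the study, those titled as gain of function at stage 10. The study followed ectopic expression and loss of gcm through embryonic development on 2-colour arrays, with stages 9 to 16 in the gain of function. Ectopic embryos came from the cross of the Gal4 line MZ1060 to the UAS-gcm stock B5446, so that Gal4 from one parent drives the gcm transgene of the other. They were set on each array against a pool of equal amounts of mRNA from both parental stocks at the same stage. The labels describe 1-hour egg lays at 25 °C that developed at 29 °C (29 °C or 18 °C in the text on the series as a whole), and RNA was poly(A)-selected from whole embryos. In replicates 1 and 2 the ectopic sample carried Cy3, and in replicates 3 and 4 it carried Cy5. The opposite condition, used here for comparison, is 5 arrays of stage 10 embryos homozygous for gcmN7-4, sorted by the absence of GFP from a Kr-GFP balancer, against OregonR. The labels do not say in which cells MZ1060 is active.

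The gene gcm, glial cells missing, encodes a GCM-domain transcription factor that switches neural precursors from neuronal to glial fate. It acts briefly in the lateral glia of the embryonic nervous system, where it turns on repo and other glial genes, and together with its paralogue gcm2 it also acts in blood cells (plasmatocytes and crystal cells). At stage 10 the germ band is extended, neuroblasts have delaminated and divide, and the first glial precursors express gcm. RNA laid down by the mother has by then mostly been degraded, so a whole embryo holds chiefly transcripts of its own genome.

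Values are log2 ratios of ectopic over wild type, so 1 stands for a 2-fold higher and -1 for a 2-fold lower RNA amount. A ratio holds no level, so neither the stage nor the tissue makeup of an embryo pool could be checked against the level of its markers, and no gene's level is compared with another's. A lower ratio in whole embryos can mean fewer cells of a type or less RNA per cell, and these cannot be told apart. The 4 arrays measured 21911 to 23103 of the 23808 probes, and their medians before centring lay between -0.15 and 1.22. After all were turned to ectopic over wild type, each of the 6 pairs of arrays correlated positively across probes (rho 0.121 to 0.233). The labels call the repeats independent experiments without naming separate cages or crosses, so p-values speak for these samples only. Each p-value and standard error (SE) rests on a variance pooled over all groups of the study. They do not measure the spread of these 4 arrays alone. For example, CG10038 had an SD of 2.84 over the 4 arrays and an SE of 0.46. For Marf1 the SD was 0.12 and the SE 0.48. Leaving out replicate 1 removed more calls than leaving out any other array. Counts or lost calls without it are given for most groups of genes, but not for all.

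Of 23275 probes tested with limma, 1012 passed the threshold (adjusted p under 0.05), or 4.35% of those tested. Of these, 746 were higher (3.21%) and 266 lower (1.14%), and 427 and 98 changed at least 2-fold. The median over all tested probes was -0.01. By gene, 803 of 11529 were called, 612 higher and 191 lower. Without replicate 1 the calls numbered 278, with 250 higher and 28 lower, and without replicate 4 they numbered 420. Rises outnumbered falls, and among the 12 highest genes qin, Marf1 and BigH1 are known from the germline or the early embryo. The split moved with the scaling of the arrays: 73.7% of calls were higher in the main fit, 58.8% when the arrays were scaled to 1 spread, and 100% (230 calls) when they were not centred, where no gene of any list was called lower.

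The first comparison asks whether gcm RNA was raised, which checks the label. The log2 ratio of gcm was 0.47, 0.77, 1.26 and 1.18 on replicates 1 to 4. All 4 arrays lay above 0, with both Cy3 arrays below both Cy5 arrays. The fitted rise was 1.89-fold (log2 0.92 ± 0.29 SE, n = 4) with an adjusted p of 0.0548 by limma, just short of the threshold. It passed when arrays were scaled to 1 spread (1.01, adjusted p = 0.0152) and in a fit of gain-of-function arrays alone (0.92, adjusted p = 0.00341). It did not pass with the replicate number as a block (adjusted p = 0.1234), without centring (0.225), in a fit of the 4 arrays alone (0.3502), or without any 1 of the 4 replicates (adjusted p = 0.1236 to 0.2191). In the mutants, gcm had log2 ratios of -1.68, -1.52, -2.09, -1.15 and -0.997 on replicates 1 to 5. These groups did not overlap, and ectopic minus mutant was 2.36 ± 0.39 (SE) with an adjusted p of 0.000173. Where the gcm probe lies relative to the transgene and the mutant lesion was not given in the sources.

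Among 7 measured genes of the gcm family and of glial fate, 1 rose, none fell, and all 7 had a fitted ratio above 0 (median 0.31). Over all probes 3.21% were called higher and 1.14% lower. The member that rose was retn, which encodes an ARID-domain transcription factor also known as dead ringer. Its log2 ratio was 0.86, 0.34, 0.40 and 1.03 on replicates 1 to 4 (fitted 0.66 ± 0.18 SE, adjusted p = 0.0277 by limma). The call was lost without replicate 1 or without replicate 4. The paralogue gcm2 varied from -0.29 on replicate 1 to 0.98 on replicate 3 and did not pass (0.37 ± 0.54, adjusted p = 0.908). The homeobox gene repo, the classical glial target of gcm, was 0.35, 0.00, 0.06 and 0.67 (0.27 ± 0.20, adjusted p = 0.682). For repo, replicates 2 and 3 lay at 0 and replicates 1 and 4 above it. The RGS-domain gene loco, which acts in G-protein signalling of glial cells, was 0.54, 0.23, 0.18 and 0.30 (0.31 ± 0.17, adjusted p = 0.418). In the mutants loco fell, with -0.93, -0.80, -0.94, -0.55 and -0.36, and the ectopic and mutant arrays of loco did not overlap (difference 0.99 ± 0.23, adjusted p = 0.0132). The remaining members were sens-2 at 0.26 and Rfx at 0.24, and neither passed.

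Of 17 measured genes of glial differentiation none rose and 2 fell, beside 1.14% of all probes called lower. Of the 17, 13 lay below 0 (median -0.42). The gene nrv2, a subunit of the sodium pump found at septate junctions, was -1.36, -1.09, -0.61 and -0.44 on replicates 1 to 4. It fell 1.83-fold (log2 -0.87 ± 0.21 SE, adjusted p = 0.00843 by limma), and in the mutants it fell as well (-0.99). The innexin gene ogre was -1.30, -0.92, -0.21 and -0.42 (fitted -0.71 ± 0.21, adjusted p = 0.0349), and a second ogre probe gave -0.78 (adjusted p = 0.0327). For both genes the 2 Cy3 arrays lay lower than the 2 Cy5 arrays. The nrv2 call was lost without replicate 1 or 2, and the ogre call without any 1 of the 4. The septate junction gene Nrx-IV, picked with its values in view, stood at -0.72 without passing (adjusted p = 0.062). In stage 10 mutants, where 5.41% of probes were called (2.96% higher and 2.44% lower), 8 of the 17 fell and none rose.

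**Figure D1:**
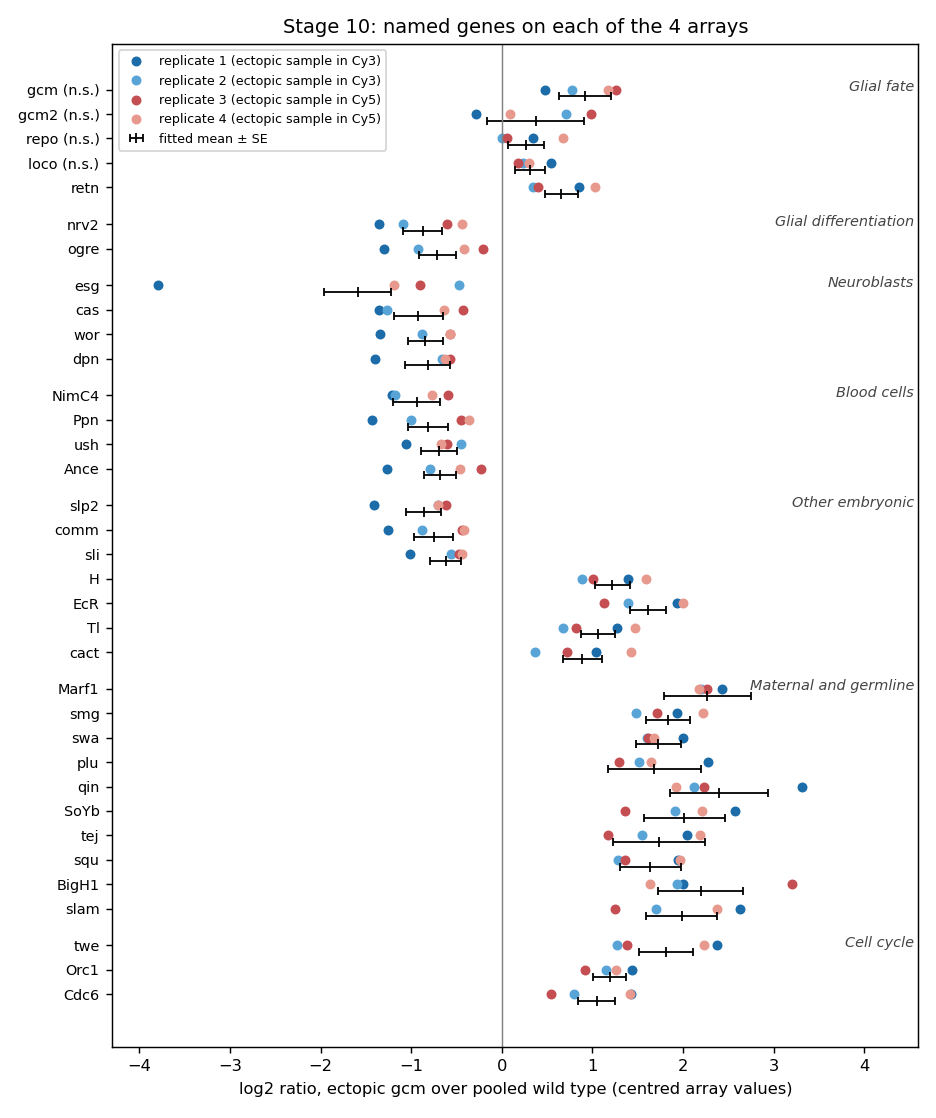
Log2 ratio of ectopic gcm over pooled wild type (horizontal axis) for 35 named genes, 1 point per array and a black bar for the fitted mean ± SE, drawn just below the points; n.s. marks genes that did not pass the threshold. The gcm points lie between 0.47 and 1.26, the glial differentiation, neuroblast and blood cell genes shown lie below 0, and the maternal and germline genes lie above 1 on all 4 arrays.

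Of 19 measured neuroblast genes 6 fell and none rose, beside 1.14% of all probes called lower. None of the 6 calls held without replicate 1. The list's median was -0.57 against -0.01 over all tested probes, with 14 of 19 below 0. The Snail-family gene wor, a marker of neuroblasts, was -1.35, -0.88, -0.57 and -0.57 on replicates 1 to 4. It fell 1.79-fold (log2 -0.84 ± 0.19 SE, adjusted p = 0.00415 by limma). Its relative esg was -3.80, -0.47, -0.90 and -1.19 (fitted -1.59 ± 0.37, adjusted p = 0.00566), so that replicate 1 lay far below the other arrays. The bHLH gene dpn, which maintains neuroblast self-renewal, was -1.40 on replicate 1 and between -0.66 and -0.57 on the other 3 arrays (fitted -0.81 ± 0.25, adjusted p = 0.0471). The temporal identity genes hb, cas and nub fell too, with log2 ratios of -0.81, -0.92 and -0.69 and adjusted p-values of 0.0142, 0.04 and 0.0106. A further temporal gene, Kr, was at -0.76 and did not pass (adjusted p = 0.053). On all 4 arrays the 6 called genes lay below 0. The gene pdm2 was represented by 3 probes that disagreed, with 0.25 for the probe used, -0.83 for a second probe (adjusted p = 0.0429) and -0.06 for the third. The median of the list was -0.94 on replicate 1 and -0.47, -0.29 and -0.45 on replicates 2, 3 and 4, below 0 on every array and lowest on replicate 1. Members that fell numbered 0, 4, 5 and 3 when replicates 1 to 4 were left out in turn. The esg and wor calls were lost only without replicate 1, that of cas also without replicate 2 or 4, and that of dpn without any 1 of the 4.

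The other neural lists held few calls, beside 3.21% of all probes called higher and 1.14% lower. None of 9 proneural and neural competence genes passed (median -0.65), and their lowest member was the proneural gene sc at -3.15, -0.44, -0.53 and -0.63 on replicates 1 to 4 (fitted -1.19 ± 0.47, adjusted p = 0.173). Of 12 neuronal differentiation genes, none passed either (median -0.02), with the active zone gene brp lowest at -1.11 (adjusted p = 0.127). Its probes disagreed, as the other 2 gave -0.14 and 0.46. The pan-neuronal gene elav was at -0.56 and the neuronal zinc finger gene nerfin-1 at -0.59, below 0 on all 4 arrays without passing. Of the 12 members of this list, 5 lay above 0, up to 0.57, and 7 below. In the Notch list 1 of 15 members rose and none fell (median -0.33). The member that rose was H, which encodes Hairless, a co-repressor that acts with Su(H) to keep Notch targets off. Its log2 ratio was 1.39, 0.89, 1.01 and 1.59 (fitted 1.22 ± 0.19 SE, 2.33-fold, adjusted p = 4.92e-05 by limma). In the mutants H was at 0.01, and ectopic minus mutant was 1.22 (adjusted p = 0.00718). E(spl)m7-HLH, a Notch target gene, was lowest in this list at -1.04 and did not pass (adjusted p = 0.31).

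Of 20 measured blood cell genes 5 fell and none rose, beside 1.14% of all probes called lower, and none of the 5 calls held without replicate 1. Of the 20, 17 lay below 0, and the median was -0.61. NimC4, a phagocytosis receptor of macrophages and glia, was -1.21, -1.18, -0.59 and -0.77 on replicates 1 to 4. It fell 1.92-fold (log2 -0.94 ± 0.26 SE, adjusted p = 0.0253 by limma). The other members that fell were Ppn, a matrix protein gene (-0.81), ush, a cofactor of GATA factors (-0.70), Ance, a peptidase gene (-0.68), and LanB1, a laminin gene (-0.66). Each of the 5 lay below 0 on all 4 arrays. The lowest fitted values belonged to PPO2, a prophenoloxidase of crystal cells, and Pxn, a matrix peroxidase of plasmatocytes, at -1.07 and -1.06, and neither passed (adjusted p = 0.0949 and 0.0812). Of the 20, 3 lay above 0, up to 1.14. Among these the crystal cell gene lz was at 0.53 (adjusted p = 0.259), and at 0.77 on a second probe (adjusted p = 0.0703), without passing. In the mutants 12 of the 20 fell (median -0.73), beside 2.44% of all probes called lower there, with PPO2 at -2.16 and Pxn at -1.90. The list holds gcm itself. By replicate the list's median was -1.02, -0.53, -0.40 and -0.32, all below 0. Members that fell numbered 0, 1, 3 and 1 when replicates 1 to 4 were left out in turn.

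Lists for other tissues, which stand for further cell types of a whole embryo, held 5 calls in all, Ance among them. All 5 were lower, beside 1.14% of all probes called lower. In the midline list 2 of 9 fell (median -0.62, all 9 below 0), namely comm at -0.75 (adjusted p = 0.0314) and sli at -0.62 (adjusted p = 0.0291), both of which act in axon guidance. Of 13 segmentation genes 1 fell, slp2 at -0.86 (adjusted p = 0.0039), with a list median of -0.53. Of 8 tendon and epidermis genes 1 fell (median -0.09), Ddc, the dopa decarboxylase of cuticle hardening. The amnioserosa and dorsal ectoderm list held 1 call in 10 (Ance, median -0.35). All 5 calls were lost without replicate 1, those of comm and sli without any 1 of the 4, that of Ance also without replicate 2, and that of Ddc also without replicate 2 or 4. None passed among 9 tracheal genes (median -0.22, lowest btl at -0.69), 13 mesoderm and muscle genes (-0.05, lowest bap at -0.89), 10 gut and endoderm genes (-0.09, lowest fkh at -0.53) or 4 Hox genes (0.00, Dfd at -0.26), by the probe used for each gene. A second probe of the homeobox gene otp, in the gut list, gave -1.16 (adjusted p = 0.0143), against -0.09 for the probe used. The medians of the neuroblast, proneural, blood, midline and segmentation lists thus lay below those of the muscle, gut and Hox lists, while that of the neuronal differentiation list did not. Further lists also lay below those, among them glial differentiation (-0.42), DNA replication (-0.39), amnioserosa and dorsal ectoderm (-0.35), heat shock (-0.33) and trachea (-0.22). That order is a description, since no test compared the lists.

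**Figure D2:**
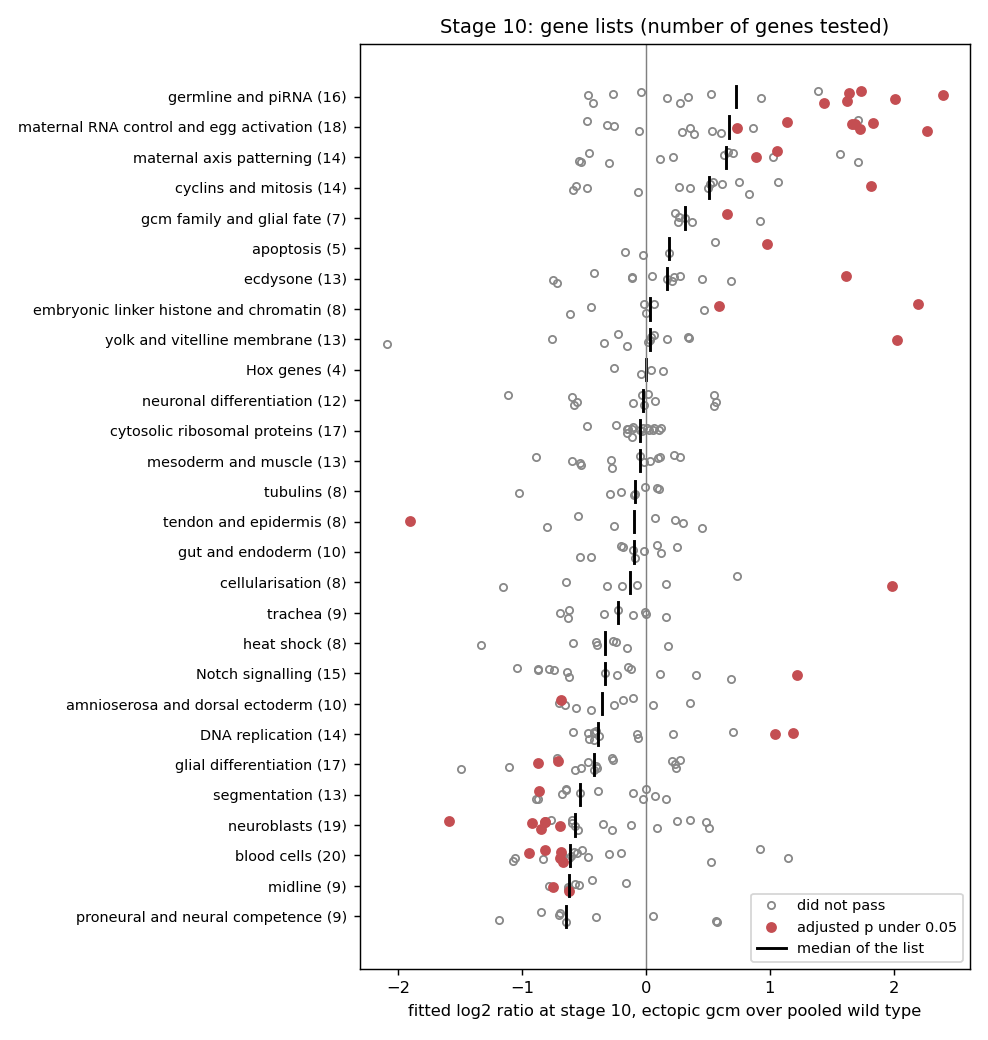
Fitted log2 ratio at stage 10 (horizontal axis) for every tested member of 28 gene lists, ordered by the list's median (black bar); filled red points passed the threshold and open points did not, and the number of tested genes stands beside each name. Called genes lie above 0 in the maternal and germline lists at the top and below 0 in the neuroblast, blood cell and midline lists near the bottom.

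Of the 28 gene lists, those for maternal RNA control and for the germline held the most rises. Of 18 genes of maternal RNA control and egg activation 7 rose and none fell (median 0.67), and of 16 germline and piRNA genes 6 rose and none fell (median 0.73), against 3.21% of all probes called higher. These lists were drawn up with earlier results of these arrays known, so their counts are no independent evidence. The gene smg, which encodes the translational repressor Smaug that triggers the decay of maternal mRNA, was 1.93, 1.48, 1.71 and 2.22 on replicates 1 to 4. It rose 3.57-fold (log2 1.84 ± 0.25 SE, adjusted p = 3.85e-06 by limma). Marf1, a regulator of oocyte meiosis, was 2.44, 2.19, 2.27 and 2.17 (fitted 2.27 ± 0.48, adjusted p = 0.00213), and its second probe gave 2.10. The 4 arrays of Marf1 lay close together (SD 0.12). The gene swa, needed to localise bicoid mRNA, was 2.005, 1.61, 1.62 and 1.68 (fitted 1.73 ± 0.25, adjusted p = 1.13e-05). The remaining members that rose were plu, of the kinase complex that starts the embryonic cycles (1.69), BicD, an adaptor for mRNA transport (1.66), cup, a binding partner of eIF4E (1.14), and wisp, a poly(A) polymerase of egg activation (0.74). The germ plasm gene osk was at 1.71, with arrays from 0.70 to 2.53, and did not pass (adjusted p = 0.145).

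The piRNA genes protect the germline genome from transposons. The Tudor-domain gene qin was 3.31, 2.12, 2.23 and 1.92 on replicates 1 to 4 and rose 5.27-fold (log2 2.40 ± 0.54 SE, adjusted p = 0.00477 by limma). SoYb was 2.57, 1.91, 1.36 and 2.22 (fitted 2.02, adjusted p = 0.00395). The other piRNA genes that rose were tej (1.74), squ (1.64), mael (1.63) and aub (1.44), all above 1 on all 4 arrays. Members of the same pathway that did not pass included del at -0.46 and cuff at -0.43, so the list was mixed, with 4 of 16 below 0. When replicates 1 to 4 were left out in turn, rises numbered 4, 6, 5 and 5 of the 18 maternal RNA control genes and 3, 5, 5 and 4 of the 16 germline genes. The calls of smg, swa, Marf1 and squ held without any 1 of the 4. The qin call was lost without replicate 1, that of SoYb without replicate 1 or 4, and those of plu and tej without any 1 of the 4.

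Maternal genes that pattern the axes showed the same direction in part. Of 14 measured members 2 rose and none fell (median 0.65), beside 3.21% of all probes called higher. The Toll receptor gene Tl was 1.28, 0.67, 0.82 and 1.47 (fitted 1.06 ± 0.19 SE, adjusted p = 0.000279 by limma). Its pathway's inhibitor gene cact was 1.04, 0.37, 0.72 and 1.42 (fitted 0.89 ± 0.22, adjusted p = 0.00857), a call lost without replicate 1 or 4. The receptor kinase gene tor was at 1.71 without passing (adjusted p = 0.062). In the mutants Tl was at -0.28, and ectopic minus mutant passed for it (1.33 ± 0.25, adjusted p = 0.00201). Yolk and vitelline membrane genes, listed as markers of eggs, held 1 rise in 13 (median 0.03). That member, Vm32E, was 0.62, 1.88, 4.78 and 0.84 on replicates 1 to 4 (fitted 2.03, adjusted p = 0.0169). Vm32E stood high on replicate 3 and was not called without it or without replicate 2. What part eggs or other stages had in the maternal signal was not tested.

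BigH1, the linker histone of the early embryo and the germline, was 2.005, 1.93, 3.20 and 1.64 on replicates 1 to 4. It rose 4.58-fold (log2 2.19 ± 0.47 SE, adjusted p = 0.0027 by limma). In the same list of 8 chromatin genes osa, a subunit of the Brahma remodelling complex, rose by 0.60 (adjusted p = 0.0186, lost without replicate 1 or 4), and the list's median was 0.03. Of 14 cyclin and mitosis genes 1 rose, twe, the Cdc25 phosphatase of meiosis, with 2.37, 1.27, 1.38 and 2.23 (fitted 1.81 ± 0.30, adjusted p = 7.83e-05). Of 14 DNA replication genes 2 rose, both of which load the replicative helicase: Orc1 at 1.19 ± 0.18 (adjusted p = 2.73e-05) and Cdc6 at 1.05 ± 0.21 (adjusted p = 0.00106). The helicase subunits Mcm2, Mcm3, dpa and Mcm5 lay between -0.59 and -0.38 and did not pass, and the list's median was -0.39. Of 8 cellularisation genes 1 rose, slam, needed for membrane growth between the first cells (2.63, 1.70, 1.25 and 2.37, fitted 1.99 ± 0.39, adjusted p = 0.000962). The calls of twe, Orc1, Cdc6, slam and BigH1 were kept without any 1 of the 4 replicates. Beside the counts of these lists, 3.21% of all probes were called higher.

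The ecdysone receptor gene EcR was among the firmest rises. Its log2 ratio was 1.93, 1.39, 1.13 and 1.996 on replicates 1 to 4 (fitted 1.61 ± 0.20 SE, 3.06-fold, adjusted p = 8.4e-07 by limma), and a second probe gave 0.91 (adjusted p = 0.000563). It was the only call among 13 ecdysone genes (median 0.17), beside 3.21% of all probes called higher. In the apoptosis list 1 of 5 rose, the initiator caspase gene Dronc at 0.98 ± 0.27 (adjusted p = 0.0263), a call lost without replicate 1 or 4. None of 8 heat shock genes passed (median -0.33, with Hsp68 lowest at -1.33 on 3 arrays that ranged from -3.54 to 0.57). Nor did any of 17 ribosomal protein genes (median -0.04, RpS21 lowest at -0.48) or of 8 tubulin genes (median -0.09, gammaTub37C lowest at -1.02).

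Among the 12 highest called genes with all 4 arrays above 0, several were steady and some rested on 1 array. Ugt36E1, a UDP-glycosyltransferase gene, was highest at 3.83, with 7.36, 4.19, 1.13 and 2.66 on replicates 1 to 4. CG5704 followed with 3.48, 2.88, 2.71 and 2.55 (fitted 2.90 ± 0.52 SE, adjusted p = 0.000282 by limma). The gene l(1)G0196, the fly homologue of an inositol pyrophosphate kinase, was 2.98, 2.12, 2.54 and 2.65 (fitted 2.57 ± 0.25, 5.95-fold, adjusted p = 6.53e-09). A second l(1)G0196 probe gave -0.30 (adjusted p = 0.94), so the probes of this gene disagreed. CG5608 was at 2.45 with a lowest array of 2.25, and CG5966 at 2.41 with a lowest array of 1.97. CG30440 was at 2.36 on the probe used and between 0.47 and 1.53 on 3 further probes. CG11263 (2.45), CG14731 (2.28) and CG10038 (2.25) varied more, with an SD of 1.95, 2.35 and 2.84, and CG10038 was 6.49 on replicate 1 and 1.19 or less on the others. The calls of CG5966 and CG10038 were lost without replicate 1, that of CG11263 without replicate 1, 2 or 4 and that of CG14731 without replicate 1, 3 or 4. The remaining members of the 12, qin, Marf1 and BigH1, are described above.

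The 12 lowest called genes were less steady. Their SD over the arrays lay between 1.11 and 2.65, and 1 array carried several of them. CG11060 was lowest at -3.86, with -0.13, -4.16, -4.80 and -6.36 on replicates 1 to 4. The cuticle protein gene Lcp65Ag1 was -3.63, -1.06, -2.96 and -4.17 (fitted -2.95 ± 0.72 SE, adjusted p = 0.00922 by limma), and a second probe gave -2.35 (adjusted p = 0.014). Ddc was -1.84, -2.43, -0.39 and -2.96 (fitted -1.90 ± 0.57, adjusted p = 0.0465). In Pepck2, of gluconeogenesis (-2.28), Oatp33Ea, an organic anion transporter gene (-1.80), and ppl, of the glycine cleavage system in the fat body (-1.65), replicate 1 lay at -5.60, -4.995 and -4.68, and no other array lay below -1.58. In CG32091 (-2.34), SmydA-6 (-1.94), fsd (-1.74) and PGAP1 (-1.64), replicate 3 was lowest. The serine protease gene Jon99Ciii (-2.07) was near 0 on replicate 2, and CNT1, a nucleoside transporter gene (-2.02), was lowest there. Of these 12 only PGAP1 and CG11060 were still called without replicate 1, and each of them was lost without replicate 3.

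The next comparison asks where stage 10 differed from the other stages with ectopic gcm. Of 14780 probes tested at every stage, 5 were higher at stage 10 than the mean of the 7 other stages (0.0338%) and none was lower, with 807 at an unadjusted p under 0.05. They stood for 4 named genes, CG14989, l(1)G0196, GILT1 and whd, and 1 probe with no gene. GILT1, a lysosomal thiol reductase gene, was 1.99, 1.76, 1.63 and 1.78 at stage 10. At stages 9 and 11 its fitted ratio was 1.39 and 0.80, and from stage 12 to stage 16 it lay between -0.42 and 0.06. Stage 10 minus the others was 1.59 ± 0.27 for it (SE, adjusted p = 0.00273 by limma). For whd, the carnitine palmitoyltransferase of mitochondrial fat oxidation, the difference was 1.02 ± 0.21 (adjusted p = 0.0494), with 1.23 at stage 9, 0.90 at stage 11 and 0.19 or less from stage 13 on. For l(1)G0196 it was 1.64 ± 0.27 (adjusted p = 0.00273), again with stage 9 close to stage 10 (2.22 and 2.57). CG14989 was 0.90, 2.60, 1.73 and -0.81 on replicates 1 to 4 and below 0 at every other stage (difference 1.80 ± 0.35, adjusted p = 0.0387). Its 4 arrays did not share a direction. The number of calls was 0 without replicate 1, 12 without replicate 2 and 3 without replicate 3.

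**Figure D3:**
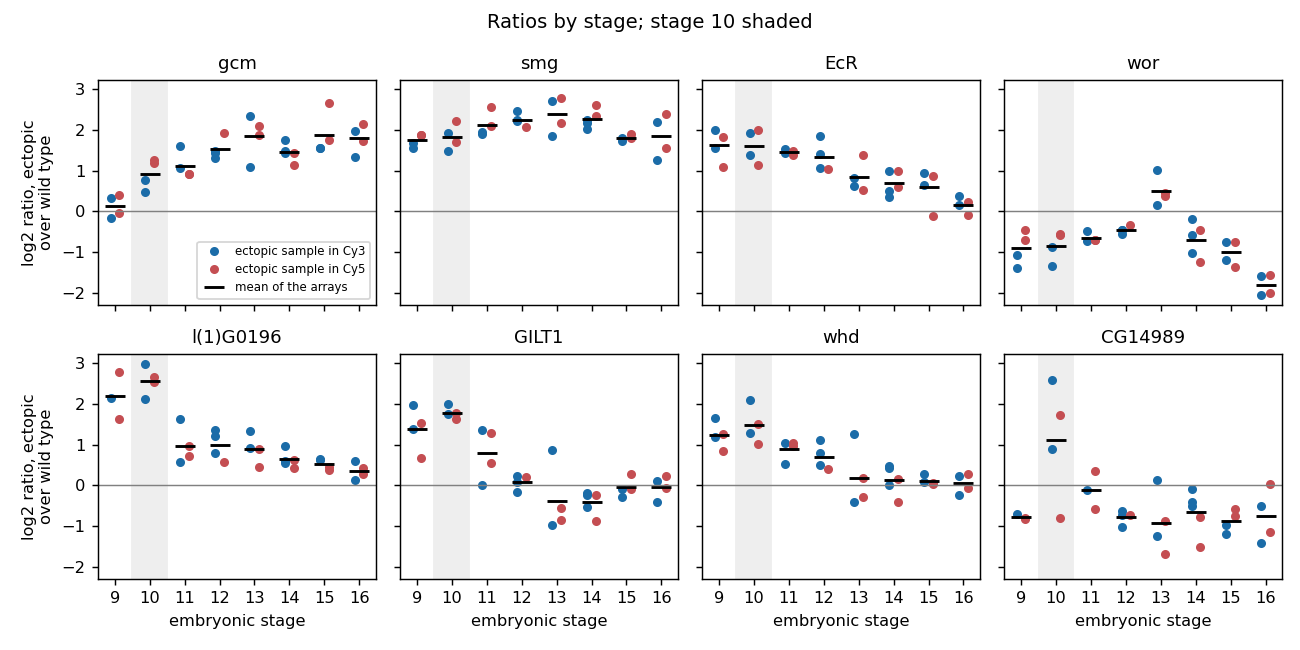
Log2 ratio of ectopic gcm over wild type of the same stage (vertical axes) against embryonic stage (horizontal axes) for 8 genes, 1 point per array coloured by the dye of the ectopic sample, with the mean as a bar and stage 10 shaded. The mean gcm ratio is near 0 at stage 9, higher at stage 10 and higher again later. The ratio of smg stays near 2 throughout, EcR declines, and GILT1, whd and l(1)G0196 are highest at stages 9 and 10.

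Many calls of stage 10 recurred at stages 9 and 11. Over all tested probes, 9.37% were called at stage 9 (4.75% higher, 4.62% lower) and 2.9% at stage 11 (2.47% higher, 0.43% lower). From stage 12 to stage 16 the shares were 2.06%, 3.15%, 1.58%, 0.481% and 0.222%, of which 1.91%, 2.57%, 1.21%, 0.459% and 0.144% were higher and 0.155%, 0.579%, 0.373%, 0.0218% and 0.0784% lower. Of 734 probes called higher at stage 10 and tested throughout, 469 were also called higher at stage 9 (63.9%) and 468 at stage 11 (63.8%). From stage 12 to stage 16 the number went from 334 to 318, 187, 77 and 22. Of 249 called lower, 156 were also called lower at stage 9 (62.7%), 40 at stage 11 (16.1%) and 7 or fewer at each later stage. Neither group held a probe called the opposite way at any other stage. Over the 14780 probes the ratios of stage 10 correlated with those of stage 9 at a rho of 0.425, of stage 11 at 0.477 and of stage 16 at 0.223. These are correlations across probes, which are not independent, and the arrays of each stage have their own wild-type pool. For smg the mean lay between 1.75 and 2.38 at every stage. For EcR it fell from 1.61 at stage 10 to 0.17 at stage 16. The neuroblast gene wor lay below 0 at 7 of the 8 stages and at 0.50 at stage 13. For gcm itself the mean was 0.13 at stage 9 and 1.12 at stage 11, and stage 10 minus the others did not pass (-0.49 ± 0.31, adjusted p = 0.999).

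The list counts also varied between stages. At stage 9, 8 neuroblast genes and 11 blood cell genes fell, against 6 and 5 at stage 10, and 2 of each at stage 11. The share of all probes called lower went the same way, with 4.62% at stage 9, 1.14% at stage 10 and 0.43% at stage 11. Of the maternal RNA control list 7 rose at stage 9 and 4 at stage 11, and of the germline and piRNA list 5 and 6. Over all probes 4.75% were called higher at stage 9 and 2.47% at stage 11. No difference in these counts between stages was tested.

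The last comparison sets ectopic gcm beside the mutants at stage 10, which carry opposite manipulations of gcm. In the mutants 1272 of 23520 probes were called (5.41%), 697 higher and 575 lower. Over the 23010 probes tested in both, 350 were called in both, or 34.6% of the ectopic and 27.5% of the mutant calls. Of these 260 were higher in both and 73 lower in both, while 1 was higher with ectopic gcm and lower in the mutants, and 16 the reverse. The shared calls thus went mostly the same way although the manipulations were opposite. Leaving out ectopic replicate 1 or 4 left 128 or 164 shared calls of the same direction, of 333, and 4 or 5 of the opposite, of 17. The wild types were different stocks, a parental pool and OregonR, and no array entered the mean ratio of both conditions. Both sets of calls still draw on the same variance of each probe, pooled over all groups, so they are not separate evidence. Marf1 was at 2.27 with ectopic gcm and 3.63 in the mutants, smg at 1.84 and 2.29, swa at 1.73 and 2.70, BigH1 at 2.19 and 2.96, and GILT1 at 1.79 and 1.82. Among the lower genes wor was at -0.84 and -1.28, dpn at -0.81 and -1.33, NimC4 at -0.94 and -1.33, and Ppn at -0.81 and -1.55. For none of these 9 genes did ectopic minus mutant pass. In contrast to those, aub, mael and qin rose with ectopic gcm and stood at 0.06, 0.54 and 0.88 in the mutants, where none of the 3 passed. Ectopic minus mutant did not pass for them either (adjusted p = 0.0812, 0.203 and 0.48). Of the maternal RNA control list 8 of 18 rose in the mutants (median 0.92), and of the germline and piRNA list 3 of 16 (0.64). Over all probes 2.96% were called higher in the mutants.

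**Figure D4:**
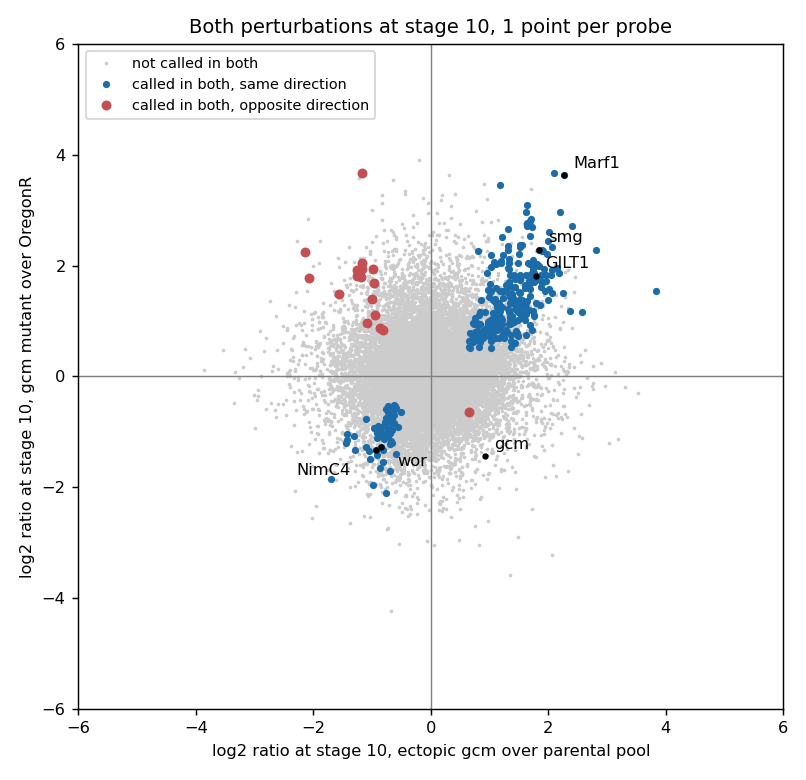
Log2 ratio at stage 10 with ectopic gcm (horizontal axis) against the log2 ratio in gcm mutants (vertical axis), 1 point per probe; blue points were called in both with the same direction, red points in both with opposite direction, and 6 genes are labelled. The blue points lie at the upper right and lower left, 16 of the 17 red points lie in the upper left, and gcm lies in the lower right without being called in both.

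Genes called in opposite directions were few. By the probe used for each gene there were 4, named here after their values were seen. Lower with ectopic gcm and higher in the mutants were dan, a pipsqueak-domain nuclear factor (-0.98 and 1.93), Wsck, a receptor-like kinase gene (-1.004 and 1.40), and Cyp310a1, a cytochrome P450 gene (-0.86 and 0.88). CG14650 had the reverse pattern (0.66 and -0.64).

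The difference between ectopic and mutant embryos was called at 245 of 23010 probes (1.06%), 119 higher (0.517%) and 126 lower (0.548%), with gcm among the higher ones. The count was 113 without ectopic replicate 1, 118 without ectopic replicate 4 and 141 without mutant replicate 4. Of the 10 named genes with the largest differences, 7 were called in the mutants and not with ectopic gcm, Cpr49Ae and CG15547 were called with ectopic gcm only, and Mabi in neither. The bHLH gene net was -0.99, -0.17, -0.67 and -0.83 with ectopic gcm and 3.14, 2.49, 2.17, 1.34 and 2.09 in the mutants, a difference of -2.93 ± 0.43 (SE, adjusted p = 2.98e-05 by limma). Without overlap, CG12194 (-3.20 ± 0.51) and the alkaline phosphatase gene Alp1 (-3.07 ± 0.54) were likewise near or below 0 with ectopic gcm and high in the mutants. CG11562 (-3.01) and Mabi (-3.96) completed the lower side, and Mabi was -5.57 on replicate 1 of the ectopic arrays. On the higher side, pr, of pteridine synthesis, was 0.85, -0.01, 0.40 and 0.66 against -2.05, -1.61, -2.06, -2.93 and -2.01 in the mutants (difference 2.66 ± 0.47, adjusted p = 0.000825). SPE, the protease that activates the Toll ligand, differed by 3.05 and CG14973 by 3.55, both by low values in the mutants. Cpr49Ae, a cuticle protein gene (4.33), and CG15547 (3.60) were high with ectopic gcm, on arrays that ranged from -0.15 to 6.22 and from -0.50 to 6.95. Among the listed genes, loco, Gs2, H, Tl and osa also passed this test in the higher direction (0.99, 1.51, 1.22, 1.33 and 0.83). Kr, brp, prd and yl passed in the lower direction (-1.41, -2.06, -1.98 and -2.73), brp on the probe used, with which its other probes disagreed at stage 10.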

How the data were processed

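The deposited table holds log2 ratios of Cy5 over Cy3 for 47616 spots per array. Per the labels and the series text, the authors quantified scans with GenePix and kept arrays on which at least 30% of genes had repeat spots with a standard deviation of the log ratio under 1/3. Background correction and normalization are not given in the sources used here. The log base was read from the values and the direction from the dyes in the labels. The table holds no intensities, so signal over background was not used, and the number of arrays limits the precision.

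Exact zeros and values of 9 or more in size were taken as missing. Repeat spots (1984 spots apart) were averaged. The median of an array was then subtracted from its values, and the sign was set to ectopic over wild type. A linear model with 14 group coefficients and a dye term for each experiment was fitted to all 58 arrays in R 4.3.3, with variances moderated by limma 3.58.1. Probes measured on at least 3 arrays and in both dye orientations were tested against 0, two-sided, with Benjamini-Hochberg adjustment over all tested probes and a threshold of 0.05. Contrasts of the same fit gave stage 10 minus the mean of the other stages and ectopic minus mutant. The model was also run on simulated data with independent normal noise and known changes. That noise held no deviant arrays, so the run does not bear on single arrays that differ from the rest. Python 3.11.15 with matplotlib 3.10.9 drew the figures.

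Gene names came from the platform annotation, updated through Entrez identifiers to RefSeq (Release 6 plus ISO1 MT), used for names only. Of 23808 probes, 13455 had 1 gene, 153 several and 10200 none. Of the 13455, 12851 were found in RefSeq. Where several probes stood for a gene (1383 genes), the one with values on most arrays represents it, or the first of equals. Named were the gcm and glial fate list, the 12 highest and 12 lowest called genes with 1 sign on all 4 arrays, up to 4 called members of each of 28 lists (the largest where none was called), and up to 5 genes each way from either contrast. Other genes are named as list members. The samples and lists were chosen with earlier results of these data known. Alternatives covered centring, scaling, filters, zeros, dye term, weights, arrays in the fit, a replicate block and leaving out each array.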

Additional observations from a re-analysis of the deposited data

Results flagged for a closer look

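Among 83 named genes, 10 had 1 of the 4 arrays far from the other 3. The cut-off marks about 1 in 20 unselected genes. Many of the 83 were chosen by their values on these same arrays, so that rate is no reference for the count. In 7 of the 10 the array apart was replicate 1, namely CG10038 (6.49), Pepck2 (-5.60), ppl (-4.68), sc (-3.15), dpn (-1.40), slp2 (-1.41) and RpS21 (-1.54). Replicate 3 stood apart for CG5608 (2.94) and CG14973 (-2.28), and replicate 4 for Dfd (-0.43). Of these genes CG5608, CG10038, Pepck2, ppl, dpn and slp2 were called at stage 10, and all but CG5608 lost the call without replicate 1.

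Stage 10 differed from the mean of the other stages with ectopic gcm, by limma, for CG14989 (log2 difference 1.80), l(1)G0196 (1.64), GILT1 (1.59) and whd (1.02). The 4 stage 10 arrays of CG14989 had different signs.

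Ectopic gcm differed from the mutants at stage 10 for Cpr49Ae (4.33), CG15547 (3.60), CG14973 (3.55), SPE (3.05) and pr (2.66) in the higher direction. In the lower direction were Mabi (-3.96), CG12194 (-3.20), Alp1 (-3.07), CG11562 (-3.01) and net (-2.93). Each condition had its own wild type, so these differences also hold those between the parental pool and OregonR.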

How the results depend on the processing

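The number of calls varied widely with the processing and with the arrays in the fit. None of the 60 called named genes changed sign under the alternatives run, of which the one on repeat spots gave a value for 39 of the 60. All of the 60 but CG14989, Cpr49Ae and CG15547 had 1 sign on all 4 arrays, many by the rule that named them. Leaving out or reweighting arrays could hardly reverse such genes, so the lack of reversals there is no evidence that they are robust. The cause of the changes below was not tested. Against 1012 calls at stage 10 (746 higher, 266 lower), there were 230 without centring (230 and 0), 1934 with arrays scaled to 1 spread (1138 and 796), 2605 on repeat spots with an SD under 1/3 (1559 and 1046), 3129 with array weights (1711 and 1418), whose estimation stopped before it converged, and 1559 on gain-of-function arrays alone (513 lower). With zeros kept 86 were lower. A fit of the 4 arrays alone called 0 (0 higher, 0 lower), with few degrees of freedom. Leaving out 1 replicate gave 278 to 857 calls (250 to 659 higher, 28 to 198 lower), the lowest without replicate 1. The share of calls that were higher was 73.7% in the fit reported, 54.7% with weights, 58.8% scaled, 59.8% on spot pairs, 84.5% with the block and 87.9% with zeros kept.

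Against 5 calls for stage 10 minus the other stages (5 higher, 0 lower), there were 0 (0 higher) without centring, 32 scaled (30 and 2), 16 (16 higher) on spot pairs, 171 with weights (122 and 49), and 3 (3 higher) with at least 2 arrays, with no dye term or on gain-of-function arrays alone. Leaving out 1 replicate gave 0 to 12 (0 to 10 higher, 0 to 2 lower). Against 245 calls for ectopic minus mutant (119 and 126), there were 14 without centring (6 and 8), 502 scaled (279 and 223), 858 on spot pairs (609 and 249), 143 with zeros kept (50 higher), 1477 with weights (826 and 651) and 0 (0 and 0) on stage 10 arrays alone. Leaving out 1 ectopic replicate gave 113 to 219 (34 to 109 higher, 77 to 110 lower), and leaving out 1 mutant replicate, added after the data were seen, gave 141 to 224 (47 to 112 higher, 94 to 119 lower), the lowest without replicate 4. Against 333 shared calls of the same and 17 of opposite direction, there were 68 and 0 without centring, 635 and 37 scaled, 812 and 87 on spot pairs, 1182 and 109 with weights, 8 opposite with zeros kept, and 0 and 0 on stage 10 arrays alone. Leaving out 1 ectopic replicate gave 128 to 279 and 4 to 17, and 1 mutant replicate 269 to 284 and 15 to 17.

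For gcm the log2 ratio of 0.92 passed with print blocks centred (0.96), arrays scaled (1.01), probes measured on all 4 arrays (0.92), spot pairs (0.85), weights (0.98) and gain-of-function arrays alone (0.92). It did not pass without centring (adjusted p = 0.225), with zeros kept (0.09208), with no dye term (0.0703), with at least 2 arrays (0.0553), with values of 5 or more left out (0.05332), on the 4 arrays alone (0.3502) or with 1 replicate left out (0.84 to 1.04, adjusted p 0.1236 to 0.2191). With the replicate number as a block, 684 probes were called (578 higher, 106 lower), 2 (2 higher) for stage 10 minus the others and 11 shared calls of opposite direction, and gcm was at 0.84 (adjusted p = 0.1234). Over 28 pairs of arrays with the same number, deviations correlated between -0.111 and 0.0603, so no pairing by number was seen. These deviations were taken after the dye term, and the dye follows the replicate number in most groups. The check could therefore miss a pairing. Uncalled genes that changed sign were Dfd without centring (0.0285), CG11562 without centring (0.23), with weights (0.22), with the block (0.0448) and with 1 replicate left out (-0.29 to 0.36, positive without replicate 1), Rfx with weights (-0.0185) and with 1 replicate left out (-0.19 to 0.47, negative without replicate 4), and Hsp68 with the block (0.17). Of the 60 called named genes, 37, 18, 18 and 24 lost the call without replicates 1 to 4, 35 without centring, 21 with zeros kept and 20 with the block.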
